A study of Mus musculus with 8 samples.

Results

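The genes described here are 50 mouse genes with known functions in the G2 phase and in mitosis. They were listed by symbol for their known roles in cell division, with earlier results of these data already known, and all 50 were found among the 22274 genes of the deposited table. RNA was sequenced from primary murine cardiac fibroblasts, the matrix-producing cells of the heart, in 4 libraries labelled GFP and 4 libraries labelled OEIRF7. The GFP cells received a control vector and the OEIRF7 cells a vector for interferon regulatory factor 7 (IRF7), a transcription factor of the antiviral response. The cells of all 8 libraries were then treated with TGF-β at 5 ng/ml for 24 h. TGF-β is a cytokine that turns fibroblasts into myofibroblasts. The study's methods name an adenovirus as the carrier and the series description an adeno-associated virus. The study's mouse strains had a C57BL/6J background, and the age and sex of the mice that gave these fibroblasts are not given in the sources used here. The figure legend for this experiment counts 3 biological replicates where 4 libraries per group are labelled, and all 4 were used. Which libraries came from separate cultures is not given, so the p-values measure the spread between these libraries, which may be technical.

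Mitosis genes are transcribed in a wave. Their transcripts are scarce in resting and G1 cells and accumulate as a cell passes from S phase through G2 into mitosis, so that in a culture of unsynchronised cells their level follows the share of cells in these phases. In quiescent and early G1 cells the DREAM complex holds many of these promoters silent, and in late S phase and G2 the MuvB core, B-Myb and FoxM1 activate them. Both act at a promoter element called the cell cycle genes homology region (CHR), often near CCAAT boxes, the binding sites of the trimeric factor NF-Y. Cardiac fibroblasts divide little in the healthy heart and can be driven into the cell cycle by injury or by culture.

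The libraries were of like depth, with 24888589 to 27095611 counts in GFP and 24454801 to 28658826 counts in OEIRF7, and reads were counted on mouse genes. Mouse Irf7 itself was at a normalised read count (CPM, scaled for library size) of 92.0 to 147 in GFP and of 14.5 to 16.4 in OEIRF7, a log2 fold change of -2.96 (SE 0.12, edgeR adjusted p = 7.7e-11). The study's reagent list names an adenovirus carrying human IRF7 and an adeno-associated virus carrying mouse Irf7. As said above, the sources differ on the carrier used for these cells. Mouse Irf7 was thus lower in the libraries labelled OEIRF7, whether reads of the human sequence were counted as mouse Irf7 was not tested, and every direction below is that between the libraries labelled OEIRF7 and the libraries labelled GFP.

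Promoters of 5 members are shown first, because their sequence carries the elements named above. They are the members among the mitotic kinases, the cyclins and the mitotic ubiquitylation genes that are given below with a value for each library and whose promoter window holds both elements. Each is the 150 bases before the annotated start of transcription in RefSeq on GRCm38.p6, written 5′ to 3′ on the strand of the gene, and the stretches for Ccnb2 and Cdca3 run on for 30 bases past the start. Capitals mark CCAAT or its reverse complement ATTGG, and TTTGAA or its reverse complement TTCAAA, the core of the CHR.
Cdk1, chr10:69352913-69353062, minus strand: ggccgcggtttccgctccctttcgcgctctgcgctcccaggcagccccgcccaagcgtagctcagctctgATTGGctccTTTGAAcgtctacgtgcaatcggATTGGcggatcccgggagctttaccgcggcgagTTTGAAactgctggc
Ccnb2, chr9:70421525-70421704, minus strand: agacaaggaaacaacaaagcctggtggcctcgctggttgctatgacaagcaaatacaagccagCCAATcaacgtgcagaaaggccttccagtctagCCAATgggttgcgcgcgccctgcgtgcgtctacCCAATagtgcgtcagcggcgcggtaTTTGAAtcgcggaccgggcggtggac
Ube2c, chr2:164769779-164769928, plus strand: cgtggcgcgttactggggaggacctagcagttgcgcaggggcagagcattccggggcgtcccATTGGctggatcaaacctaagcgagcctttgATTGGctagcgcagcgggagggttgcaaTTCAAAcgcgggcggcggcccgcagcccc
Cdca3, chr6:124830026-124830205, plus strand: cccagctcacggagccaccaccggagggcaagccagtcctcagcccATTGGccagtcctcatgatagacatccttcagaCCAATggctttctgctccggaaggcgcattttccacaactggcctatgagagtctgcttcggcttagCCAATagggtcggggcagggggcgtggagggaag
Cdc20, chr4:118437344-118437493, minus strand: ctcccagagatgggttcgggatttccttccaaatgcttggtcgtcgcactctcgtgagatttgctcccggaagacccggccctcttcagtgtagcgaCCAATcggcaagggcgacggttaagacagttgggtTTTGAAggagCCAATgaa

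Counted from the start of transcription, where the first transcribed base is 1, the CCAAT boxes shown for Ccnb2 begin at -87, -54 and -21 and its TTTGAA at 5. Those of Ube2c begin at -88 and -57, with TTCAAA at -29, and those of Cdc20 at -53 and -8, with TTTGAA at -18. In Cdk1 they begin at -80 and -48, and TTTGAA occurs both at -71 and at -15. Cdca3 has CCAAT boxes at -104, -71 and -4 in the stretch shown, and its TTTGAA at 31 lies just past the end of it. In all 5 promoters a CCAAT box stands upstream of a TTTGAA or TTCAAA that lies within 50 bases of the start. These 5 were picked for holding both elements, and the limit of 50 bases was set after the positions were seen.

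As a group, the mitosis genes were lower in the libraries labelled OEIRF7. Of the 50 members, 49 passed the filter on low counts, 48 of these were lower at an adjusted p under 0.05 (edgeR's quasi-likelihood test, adjusted over all 13533 genes tested) and 0 were higher, while 29.9% of all genes tested were lower and 29% higher. No member was higher at an unadjusted p under 0.05 either, and DESeq2 and limma called 0 higher. The median log2 fold change of the 49 was -1.18, which puts the median member at 44.2% of its GFP level, against a median of 0.0015 over all genes tested. Past a log2 fold change of -1 lay 36 members, while 3.89% of all genes tested were called lower and past that line. In bulk RNA, fewer cells in G2 and mitosis and less mitotic RNA per cell cannot be told apart.

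The summed level of the 50 members was 363, 343, 369 and 382 CPM in GFP libraries 1 to 4 and 165, 154, 163 and 180 CPM in OEIRF7 libraries 1 to 4. The means were 364 ± 16.1 CPM and 166 ± 11.03 CPM (SD, n = 4 each), so that OEIRF7 held 45.5% of the GFP sum. OEIRF7 replicate 4 had the highest sum of its group and replicate 2 the lowest, and both lay far under the lowest GFP library. For 45 of the 49 tested members each OEIRF7 library was below each GFP library, where 27% of all genes tested showed such a gap in that direction. The 4 exceptions with overlapping groups were Spc24, Ttk, Sgo1 and Racgap1. Ska1, the member that was not tested, had no overlap.

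Most members were scarce transcripts. In FPKM, which is scaled for transcript length, the median member was at 1.77 in GFP and at 0.893 in OEIRF7, and 44 of 50 had a GFP mean under 5 FPKM. Counts per library ran from 8 to 780 in GFP and from 2 to 360 in OEIRF7. Standard errors of the log2 fold changes accordingly ran from 0.074 (Mki67) to 0.39 (Ttk). The log2 fold change showed little relation to the level, with a Spearman correlation of 0.053 across the 49 tested members between the log2 fold change and the mean level, given as a description because the members share the same 8 libraries.

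**Figure D1:**
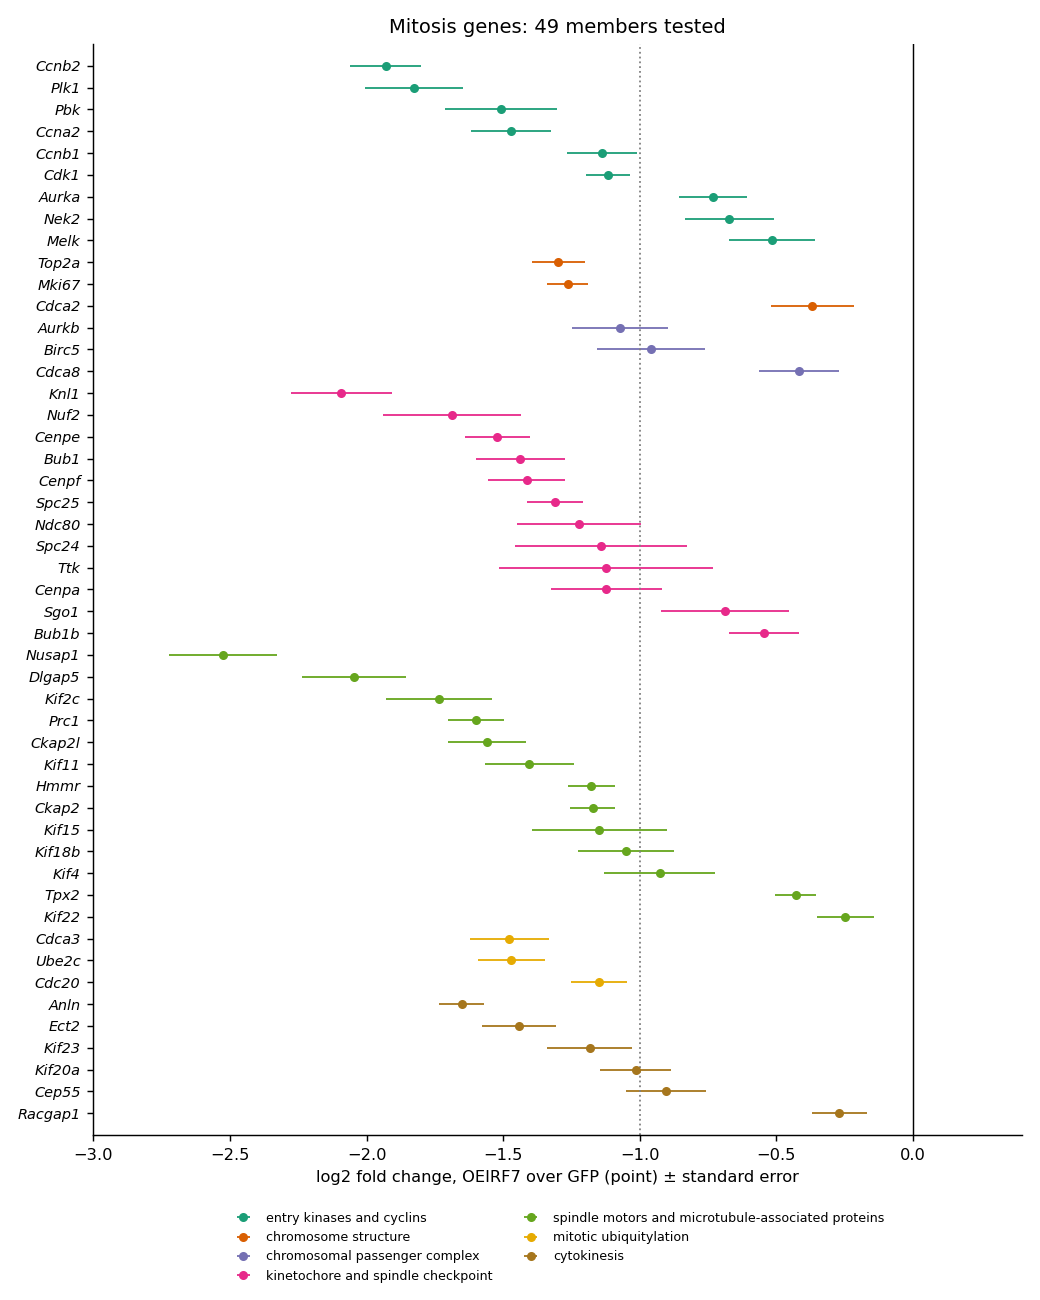
Log2 fold change of OEIRF7 over GFP (x axis, point ± standard error) for the 49 tested members (y axis), coloured by role and ordered within it. Every point lies left of 0, from -2.52 for Nusap1 to -0.25 for Kif22, and the dotted line marks a log2 fold change of -1.

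Entry into mitosis is driven by Cdk1 with its B-type cyclins, by the kinases Plk1 and Aurka and by cyclin A2. All 9 members of this role were lower, 6 of them past -1, with a median log2 fold change of -1.14. Cdk1 had the highest FPKM of the role and stood at 13.0, 13.6, 12.3 and 12.4 CPM in GFP libraries 1 to 4 and at 5.97, 5.93, 5.46 and 6.29 CPM in OEIRF7. Its groups were far apart, with little spread inside each. The log2 fold change was -1.12 (SE 0.08, edgeR adjusted p = 2.1e-08), and the exact permutation test on log2 CPM (two-sided) gave p = 0.029, the smallest that 4 against 4 libraries allow and the value for each tested member without overlap.

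Ccnb2 encodes cyclin B2, an activating partner of Cdk1, and its promoter above carries 3 CCAAT boxes ahead of the TTTGAA. It showed 6.16, 5.69, 6.36 and 6.83 CPM in GFP and 1.59, 1.62, 1.49 and 1.87 CPM in OEIRF7. This was the lowest fold of the role, a log2 fold change of -1.93 (SE 0.13, edgeR adjusted p = 1.1e-08) or 26.3% of GFP. Ccnb1, cyclin B1, fell less, to 45.4% of GFP, and Ccna2, cyclin A2, to 36.1%. Exons of Ccna2 share 510 bases with Exosc9 on the opposite strand, which holds more counts than Ccna2, and since the strand setting of the counting is not given, part of its reads cannot be assigned with certainty.

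Plk1, the polo-like kinase that acts from mitotic entry to cytokinesis, fell to 28.2% of GFP (log2 fold change -1.83, SE 0.18). Pbk, a mitotic kinase of the MAPKK family, fell to 35.2%. The centrosomal kinases Aurka and Nek2 moved less, to 60.2% and 62.7%. The smallest change in the role was that of Melk, a kinase of the AMPK family with high levels in dividing cells. Melk had 2.76, 2.56, 3.04 and 3.05 CPM in GFP and 2.09, 1.83, 2.24 and 1.83 CPM in OEIRF7, and the groups lay close to each other without overlap (log2 fold change -0.52, SE 0.16, edgeR adjusted p = 0.011).

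Other members act on the chromosomes themselves, on their packing and on the correction of errors at their centromeres. In the chromosome structure role, Top2a, the topoisomerase that untangles sister chromatids, was at 21.6, 22.1, 21.7 and 20.8 CPM in GFP and at 7.91, 7.34, 8.99 and 10.9 CPM in OEIRF7. The GFP libraries agreed closely and OEIRF7 replicate 4 was the highest of its group (log2 fold change -1.30, SE 0.10, edgeR adjusted p = 3.4e-08). Mki67, the Ki-67 protein that coats mitotic chromosomes and is the usual stain for cycling cells, fell to 41.6% of GFP, from 23.0 ± 1.45 to 9.58 ± 0.763 CPM (SD, n = 4 each).

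Cdca2, a targeting subunit of protein phosphatase 1 on chromatin, was at 3.02, 2.76, 3.04 and 2.98 CPM in GFP and at 2.25, 1.93, 2.63 and 2.35 CPM in OEIRF7. Its log2 fold change was -0.37 (SE 0.15) and its adjusted p of 0.049 in edgeR lay next to the threshold. DESeq2 gave an adjusted p of 0.11, and without OEIRF7 replicate 2 it was 0.13 in edgeR. Of the 48 calls, this was the one most often lost under other settings.

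The chromosomal passenger complex corrects faulty attachments and later steers cytokinesis. The 3 of its subunits that are members were lower with a median log2 fold change of -0.96, and together held 59.4% of their GFP sum. Incenp, a further subunit, is not a member and was more abundant. It went from a mean of 12.1 to 9.97 CPM, or 82.4% of GFP, with overlapping groups. Its log2 fold change was -0.28 (SE 0.09, edgeR adjusted p = 0.011, exact permutation p = 0.057). Birc5, survivin, had 3.06, 3.25, 3.48 and 3.66 CPM in GFP and 1.47, 1.24, 1.77 and 2.47 CPM in OEIRF7, where replicate 4 was again the highest (log2 fold change -0.96, SE 0.20, edgeR adjusted p = 0.00074).

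Aurkb, the kinase of the complex, had 2.80, 2.60, 3.04 and 3.24 CPM in GFP and 1.28, 1.14, 1.49 and 1.66 CPM in OEIRF7 (log2 fold change -1.07, SE 0.18, edgeR adjusted p = 0.0001). Cdca8, borealin, changed less, from 3.51, 3.61, 3.81 and 4.50 CPM to 2.75, 2.93, 2.43 and 3.45 CPM (log2 fold change -0.42, SE 0.15, edgeR adjusted p = 0.024). The highest OEIRF7 library of Cdca8 lay just under its lowest GFP library. Cdca8 shares 4.48% of its exonic bases with 9930104L06Rik on the opposite strand, which holds more counts, so part of its reads cannot be assigned with certainty. Without GFP replicate 4 the adjusted p of Cdca8 was 0.085, without OEIRF7 replicate 1 it was 0.057 and without OEIRF7 replicate 3 it was 0.069.

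Kinetochores attach chromosomes to the spindle, and the spindle checkpoint delays anaphase until all are attached. This role had 13 members. All 12 that were tested were lower, 10 of them past -1, with a median log2 fold change of -1.27. Spc25, a subunit of the NDC80 complex that holds microtubule ends, had the highest FPKM of the role, with 9.44, 11.7, 9.07 and 10.6 CPM in GFP and 3.88, 4.31, 4.08 and 4.14 CPM in OEIRF7. The OEIRF7 values were nearly alike, and the GFP values were more spread but far above them (log2 fold change -1.31, SE 0.10, edgeR adjusted p = 5.9e-08).

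The other subunits of the NDC80 complex fell as well. Nuf2 stood at 31.0% of GFP, Ndc80 at 42.8% and Spc24 at 45.3%, the last with overlapping groups and an exact permutation p of 0.057. Knl1, the scaffold on which checkpoint proteins assemble, had the lowest fold of the role, with 3.36, 3.13, 3.04 and 4.01 CPM in GFP and 0.892, 0.827, 0.707 and 0.730 CPM in OEIRF7 (log2 fold change -2.09, SE 0.19, edgeR adjusted p = 2e-07). Its deposited FPKM in GFP, 0.88 ± 0.748 (SD, n = 4), were far more scattered than its counts, and the log2 ratio of mean FPKM was -2.94.

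Among centromere proteins, Cenpe, a kinesin that carries chromosomes to the spindle equator, fell to 34.9% of GFP, Cenpf to 37.6% and Cenpa, the histone H3 variant of the centromere, to 45.9%. The checkpoint kinase Bub1 fell to 36.9%. Bub1b, the BubR1 subunit of the mitotic checkpoint complex, changed least, from 6.16, 5.73, 6.32 and 6.29 CPM to 4.50, 3.21, 4.28 and 4.87 CPM (log2 fold change -0.55, SE 0.13, edgeR adjusted p = 0.0018). All of its OEIRF7 libraries were nonetheless below all of its GFP libraries.

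Ttk, the Mps1 kinase that starts the checkpoint, and Sgo1, shugoshin, which protects cohesin at centromeres, were both called lower although their groups overlapped. For Ttk the log2 fold change was -1.12 (SE 0.39, edgeR adjusted p = 0.023), and the adjusted p rose to 0.082 without GFP replicate 1, to 0.063 without OEIRF7 replicate 1 and to 0.054 without OEIRF7 replicate 2. For Sgo1 it was -0.69 (SE 0.23, edgeR adjusted p = 0.02), and the adjusted p rose to 0.057 without GFP replicate 2 and to 0.062 without OEIRF7 replicate 3.

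Ska1, a subunit of the complex that keeps kinetochores on shrinking microtubules, was too scarce for the filter, with 8, 8, 10 and 11 counts in GFP and 2, 3, 2 and 2 counts in OEIRF7. The summed counts, 37 and 9, gave a depth-adjusted ratio of OEIRF7 over GFP of 0.238, with a 95% exact interval of 0.101 to 0.502 that covers counting error only. Where a laxer filter of at least 1 count in total kept it, edgeR gave an adjusted p of 0.0069 and DESeq2 one of 0.01. It was therefore low in all 4 OEIRF7 libraries but is not counted among the 48.

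**Figure D2:**
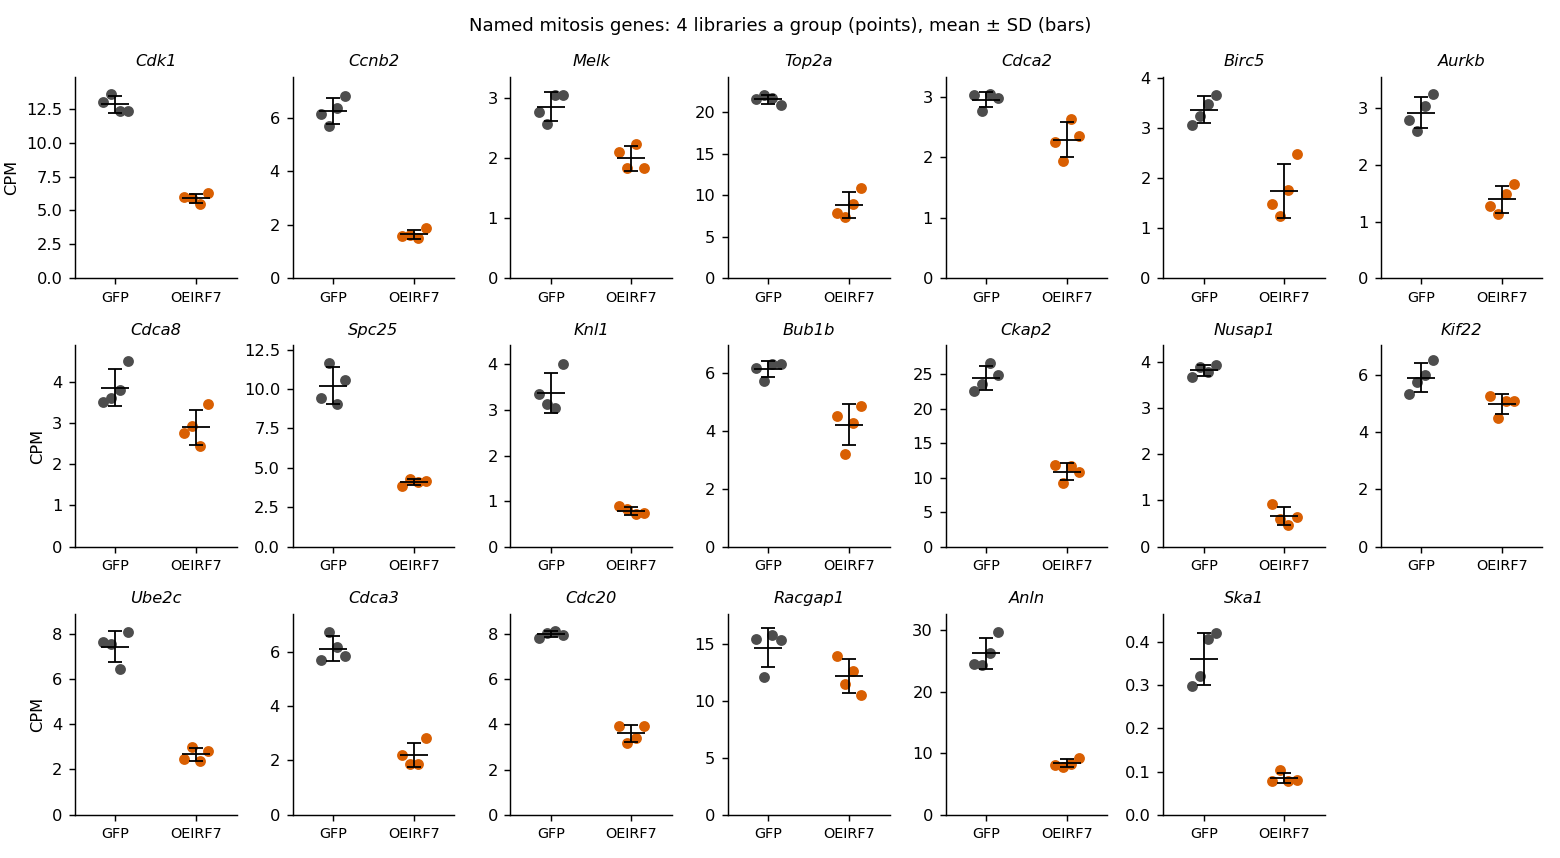
CPM (y axis, from 0) of the 20 members given with a value for each library, in the 4 GFP libraries (grey points) and the 4 OEIRF7 libraries (orange points), with the mean ± SD as black bars. The groups stand apart in each panel but that of Racgap1, and the gap is narrowest, relative to the level, for Kif22, Cdca8, Cdca2 and Melk.

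Spindle motors and microtubule-associated proteins also numbered 13, of which 12 were lower, 10 of them past -1, with a median log2 fold change of -1.18. Ckap2, a microtubule-stabilising protein, had the highest FPKM of the role and stood at 22.6, 23.6, 26.7 and 24.9 CPM in GFP and at 11.8, 9.17, 11.7 and 10.8 CPM in OEIRF7 (log2 fold change -1.17, SE 0.08, edgeR adjusted p = 2e-08). Each OEIRF7 library was under the lowest GFP library by a wide margin.

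Nusap1 (chr2:119618298-119651244, plus strand, GRCm38), which bundles microtubules near chromosomes, showed the largest fall of all 49 tested members. Its values were 3.66, 3.89, 3.77 and 3.93 CPM in GFP and 0.930, 0.586, 0.471 and 0.649 CPM in OEIRF7, or 17.4% of GFP (log2 fold change -2.52, SE 0.20, edgeR adjusted p = 6e-08). Nusap1 shares 172 exonic bases with Oip5 on the opposite strand, and Oip5, a centromere gene with 108 counts over all libraries, was lower too (log2 fold change -1.53).

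Other proteins that bundle or organise spindle microtubules fell in the same way, Dlgap5 to 24.2% of GFP, Prc1 to 33.0%, Ckap2l to 33.9% and Hmmr to 44.2%. Tpx2, which activates Aurka on the spindle, fell only to 74.3% (log2 fold change -0.43, SE 0.08), although it was one of the more abundant members of the role. Of the kinesins, Kif2c, a microtubule depolymerase, stood at 30.03%, Kif11, the motor that pushes spindle poles apart, at 37.8%, Kif15 at 45.1%, Kif18b at 48.3% and Kif4 at 52.6%. Kif4 shares 15.1% of its exonic bases with Pdzd11 on the opposite strand, which holds more counts, so its value is uncertain. Prc1 shares 11.1% with Rccd1 on the opposite strand, which holds fewer counts than Prc1.

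Kif22, a chromosome-arm kinesin, was the one tested member that was not called. It had 5.34, 5.73, 5.996 and 6.52 CPM in GFP and 5.27, 4.48, 5.07 and 5.07 CPM in OEIRF7, with the highest OEIRF7 library just under the lowest GFP library. The log2 fold change was -0.25 (SE 0.11, edgeR adjusted p = 0.058), and without GFP replicate 1 the adjusted p was 0.04. Tpx2 and Kif22 had log2 fold changes above those of all other members of this role.

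Ubiquitylation ends mitosis through the anaphase-promoting complex, or cyclosome, which marks cyclin B and securin for destruction. The mitotic ubiquitylation role also includes Cdca3, which acts at mitotic entry. The 3 members of the role were each lower past -1 and together held 39.4% of their GFP sum. Ube2c, the ubiquitin-conjugating enzyme of the complex, had 7.61, 7.53, 6.44 and 8.05 CPM in GFP and 2.44, 2.999, 2.40 and 2.84 CPM in OEIRF7 (log2 fold change -1.47, SE 0.12, edgeR adjusted p = 9.6e-08). Ube2c shares 592 exonic bases with Tnnc2 on the opposite strand, but Tnnc2 holds only 7 counts over all libraries.

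Cdca3, a protein of the pathway that degrades Wee1 at mitotic entry, had 5.71, 6.73, 6.16 and 5.84 CPM in GFP and 2.21, 1.86, 1.89 and 2.84 CPM in OEIRF7 (log2 fold change -1.48, SE 0.14, edgeR adjusted p = 5.7e-07). Cdc20, the activator that brings substrates to the complex and the target of the spindle checkpoint, had 7.80, 8.05, 8.14 and 7.97 CPM in GFP and 3.92, 3.17, 3.42 and 3.93 CPM in OEIRF7 (log2 fold change -1.15, SE 0.10, edgeR adjusted p = 2.2e-07). The GFP libraries of Cdc20 were among the least scattered of any member. Cdc20 shares 2.84% of its exonic bases with Elovl1 on the opposite strand, which holds more counts, so part of its reads cannot be assigned with certainty.

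Cytokinesis genes split the daughter cells. All 6 were lower, 4 of them past -1, with a median log2 fold change of -1.10. Anln, anillin, a scaffold of the contractile ring, was at 24.4, 24.4, 26.4 and 29.8 CPM in GFP and at 8.14, 7.76, 8.25 and 9.29 CPM in OEIRF7 (log2 fold change -1.65, SE 0.08, edgeR adjusted p = 4.8e-10), the smallest adjusted p of all members. Ect2, the exchange factor that activates RhoA at the cleavage site, fell to 36.8% of GFP, and Kif23, a kinesin of the central spindle, to 44.1%.

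Racgap1 pairs with Kif23 in the centralspindlin complex, yet changed far less. It had 15.4, 12.1, 15.8 and 15.3 CPM in GFP and 13.96, 11.5, 12.6 and 10.5 CPM in OEIRF7, with overlapping groups (log2 fold change -0.27, SE 0.10, edgeR adjusted p = 0.031, exact permutation p = 0.086). The adjusted p was over 0.05 when any of GFP replicates 1, 3 and 4 or OEIRF7 replicates 2 and 4 was left out, at 0.072 to 0.097. Cep55, which acts at the final cut, fell to 53.4%. Kif20a fell to 49.5%, but it shares 29.3% of its exonic bases with Cdc23 on the opposite strand, and Cdc23 has more counts and was itself lower (log2 fold change -0.39), so the value of Kif20a is uncertain.

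**Figure D3:**
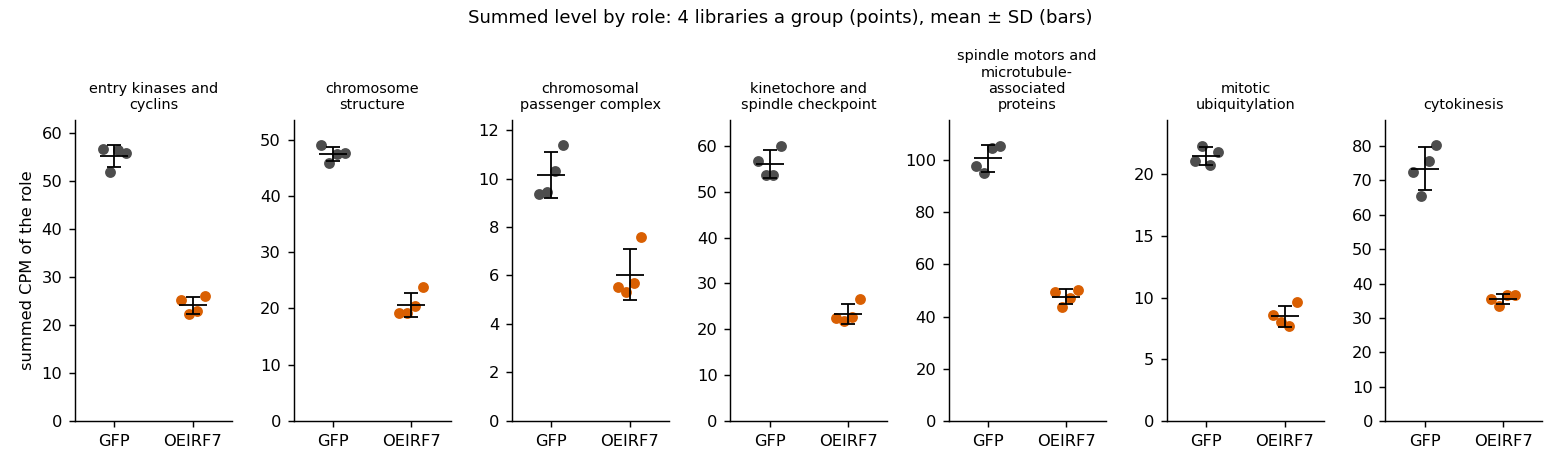
Summed CPM of the members of each of the 7 roles (y axes, each from 0) in the 4 GFP libraries (grey points) and the 4 OEIRF7 libraries (orange points), with the mean ± SD as black bars. The groups are apart for each role, and OEIRF7 sums lie between 39.4% of GFP for mitotic ubiquitylation and 59.4% for the chromosomal passenger complex.

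Exons of 13 members overlap those of another gene. The 36 tested members without such overlap were all called lower, 27 of them past -1, and their median log2 fold change was -1.18. The medians of the roles ran from -1.47 for mitotic ubiquitylation to -0.96 for the chromosomal passenger complex, which have 3 members each. No test was made between roles.

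The lists that follow are related genes that are not members. Over all genes tested, 29.9% were lower, 29% were higher and 3.89% were lower past -1. Of 66 other mitosis genes, 65 were tested, 45 were lower and 4 higher, 14 were lower past -1, and the median log2 fold change was -0.47. Troap, a spindle protein, had the lowest fold (-2.06, SE 0.34, edgeR adjusted p = 0.00012), followed by Aspm, which focuses spindle poles (-1.64, SE 0.19, edgeR adjusted p = 2.8e-06). Cks2, a small subunit of Cdk1, was higher (0.42, SE 0.09, edgeR adjusted p = 0.0013), and so was Zw10, a kinetochore protein with a further function in membrane traffic (0.35, SE 0.07, edgeR adjusted p = 0.00072). Mitosis genes were therefore not all lower, and the 50 members had the lower median.

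The anaphase-promoting complex is the ubiquitin ligase that Ube2c and Cdc20 serve, and its subunits are present throughout the cycle. Of 15 subunits and adaptors, 2 were lower (13.3%) and 4 higher, beside 29.9% lower and 29% higher of all genes tested. Their median was 0.06 on the log2 scale. Anapc7 (0.53, SE 0.05) and Anapc16 (0.28, SE 0.05) rose most. Cdc23 (-0.39, SE 0.05) and Anapc2 (-0.08, SE 0.03) were the 2 that were lower, the first of them being the gene whose exons overlap Kif20a.

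DNA replication genes, which peak earlier in the cycle at the start of S phase, had a median nearer 0. Of 34, 15 were lower (44.1%), 4 were higher and 0 were lower past -1, beside 29.9%, 29% and 3.89% of all genes tested. The median log2 fold change was -0.12. Tk1, thymidine kinase (-0.99, SE 0.17), and Cdc6, which loads the replicative helicase (-0.89, SE 0.22), fell most. The licensing factors Cdt1 (0.78, SE 0.13) and Orc1 (0.50, SE 0.19) were higher.

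Among 21 regulators of mitosis gene transcription, 7 were lower (33.3%) and 2 higher, with a median of -0.02, a share of lower genes close to the 29.9% of all genes tested. Foxm1 fell most, from 12.7 ± 0.936 to 8.24 ± 0.879 CPM (SD, n = 4 each), a log2 fold change of -0.62 (SE 0.09, edgeR adjusted p = 2.8e-05). E2f7, a repressor of the E2F family, was lower as well (-0.55, SE 0.19). E2f4, an E2F protein of the DREAM complex, was higher (0.27, SE 0.05), as was its dimer partner gene Tfdp2 (0.34, SE 0.11). Other genes of that complex were lower, namely Rbl2, p130 (-0.50, SE 0.06, edgeR adjusted p = 2e-06), and Lin52 of the MuvB core (-0.42, SE 0.08, edgeR adjusted p = 0.00066). Lin9, Lin37, Lin54, Rbbp4, Rbl1, E2f5 and Tfdp1 were not called. Neither was Mybl2, which encodes B-Myb (-0.33, SE 0.18, edgeR adjusted p = 0.13).

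Of 7 CDK inhibitors, the proteins that restrain cyclin-dependent kinases, 1 was lower (14.3%) and 2 were higher, beside 29.9% lower and 29% higher of all genes tested. Cdkn1a, p21, rose by a log2 fold change of 0.28 (SE 0.03, edgeR adjusted p = 1.9e-06), from 448 to 471 CPM in GFP to 540 to 570 CPM in OEIRF7, and Cdkn1c, p57, rose by 0.66 (SE 0.17) from a low level. Cdkn1b, p27, fell by 0.13 on the log2 scale. Cdkn2a, Cdkn2b, Cdkn2c and Cdkn2d did not pass the test, with log2 fold changes of -0.02, 0.06, -0.18 and 0.08.

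In the G1 machinery, 7 of 8 genes were lower (87.5%), beside 29.9% of all genes tested. Ccnd2, cyclin D2, fell furthest, from 643 ± 28.5 to 276 ± 15.6 CPM (SD, n = 4 each), a log2 fold change of -1.22 (SE 0.04, edgeR adjusted p = 2.1e-11). Ccnd1, cyclin D1 (-0.47), Ccnd3 (-0.19), the E-type cyclins Ccne1 (-0.76) and Ccne2 (-0.44) and the kinases Cdk4 (-0.17) and Cdk6 (-0.38) were lower too. Cdk2, the partner of cyclins E and A, was the one that was higher (0.49, SE 0.07, edgeR adjusted p = 3.6e-05).

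**Figure D4:**
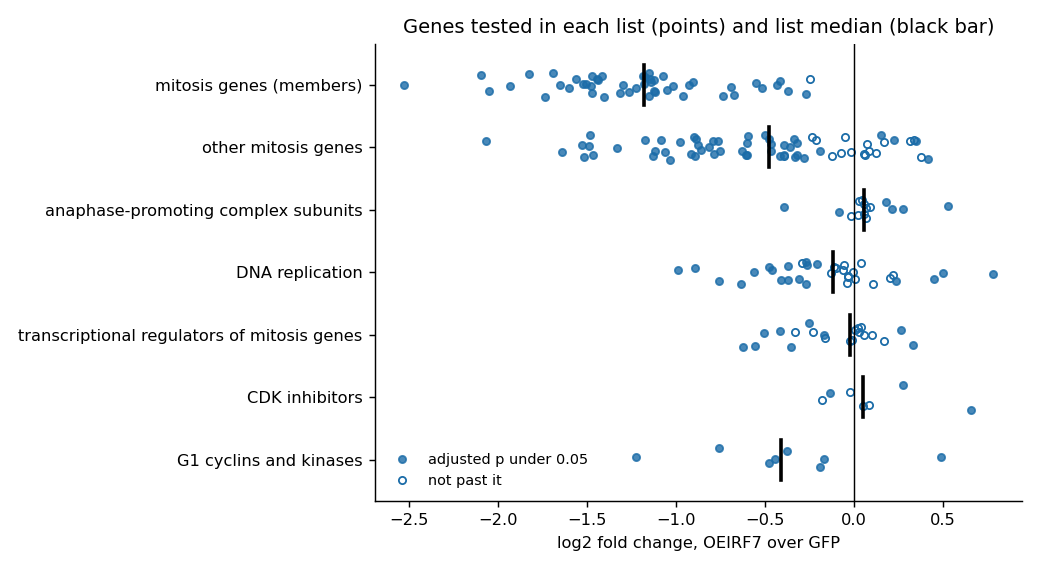
Log2 fold change of OEIRF7 over GFP (x axis) of each tested gene (points, filled where the adjusted p was under 0.05) in the 50 members and 6 further lists (y axis, points spread at random within a row), with the list median as a black bar. The members lie wholly left of 0 with a median of -1.18, the other mitosis genes reach from -2.06 to 0.42, and the remaining lists straddle 0.

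Markers of the cells that such a culture could hold were read in the same libraries. Calls in all these marker lists stand beside 29.9% lower and 29% higher of all genes tested. The 9 fibroblast markers summed to 25660 to 27280 CPM in GFP and to 22640 to 24440 CPM in OEIRF7, with 5 lower and 1 higher. That sum rests mostly on Fn1 and the collagens, and Tcf21, a transcription factor of resting cardiac fibroblasts, fell to 39.7% of GFP (log2 fold change -1.33, SE 0.10, edgeR adjusted p = 2e-08). Of 7 cardiomyocyte markers only Tnnt2 passed the filter, and it was lower (log2 fold change -0.54). Ryr2 had 4, 1, 2 and 2 counts in GFP and 8, 13, 5 and 6 in OEIRF7, higher without overlap, Tnni3 had 1 to 9 counts with overlapping groups, and Myh6, Actc1, Nppa and Pln were at or near 0 in both groups. The list summed to 9.84 to 13.7 CPM in GFP and 7.50 to 9.73 CPM in OEIRF7. Of 7 macrophage markers 3 were higher and 0 lower, with sums of 268 to 319 CPM in GFP and 326 to 363 CPM in OEIRF7.

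Endothelial markers (1 lower and 3 higher of 7) summed to 213 to 224 and 212 to 241 CPM, mural cell markers (2 lower and 2 higher of 5 tested) to 68.9 to 76.0 and 79.0 to 98.8 CPM, and epicardial markers (2 lower and 2 higher of 6) to 151 to 159 and 105 to 119 CPM, in GFP and OEIRF7 respectively. Single markers moved as far as the mitosis genes and in both directions. Among mural cell markers Cspg4 was at 283% of GFP and Notch3 at 32.8%, and among epicardial markers Krt19 was at 389% and Upk3b at 40.1%, all past the test. The fibroblast markers were thus far more abundant than any of the other lists. The part of these other cells in the fall of the mitosis genes was not tested.

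The promoters of the members shared sequence features that the choice of members did not use. RefSeq windows of GRCm38.p6, from 250 bases before to 50 bases after an annotated start, were found for 41 of the 50 members and for 27025 genes in all, and motifs were searched on both strands. No window was found for Ccna2, Pbk, Cdca2, Aurkb, Spc24, Ska1, Tpx2, Dlgap5 and Kif20a. A CCAAT box was in a window of 31 of 41 members (75.6%, 95% Wilson interval 60.7% to 86.2%) and of 41.1% of all genes. The CHR core TTTGAA was in a window of 32 members (78.0%, 63.3% to 88.0%) and of 20.2% of all genes.

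Both motifs together were found in 26 of 41 members (63.4%) and in 8.97% of all genes. The variant core TTTAAA was in 9 members (22.0%) against 14.9% of all genes, and 35 members held the one core or the other. The TTTGAA clustered at the start, and 29 members (70.7%) had one that began within 50 bases of it on either side, between -33 and 42, compared with 5.72% of all genes, a range set after the positions were seen. In 21 members a TTTGAA began in the transcribed part, as in Ccnb2 and Cdca3 above.

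**Figure D5:**
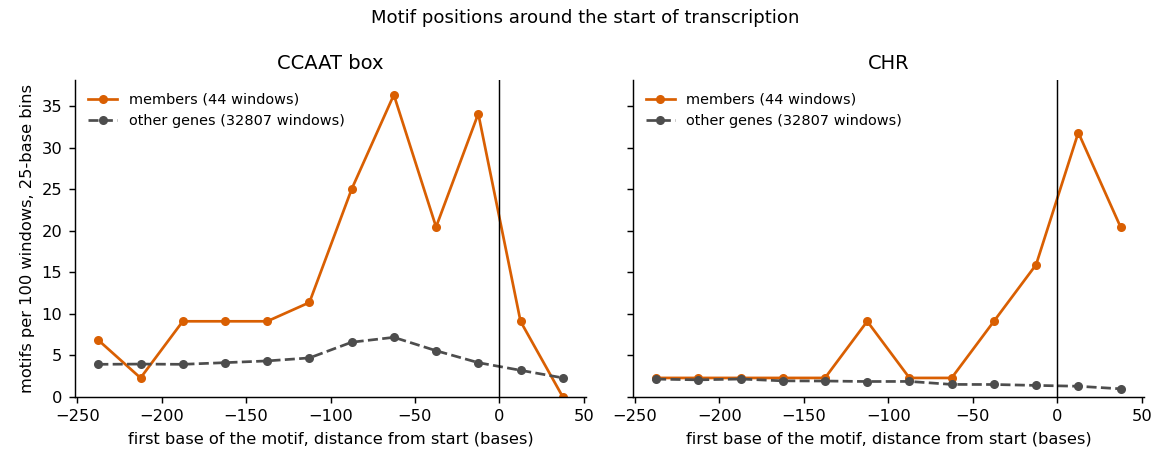
Motifs per 100 promoter windows (y axis) in bins of 25 bases by the distance of the first base from the annotated start (x axis), for CCAAT (left) and the CHR core TTTGAA (right), in the 44 windows of the members (solid) and the 32807 windows of other genes (dashed). CCAAT in the members is highest from -75 to -50, at 36.4 per 100 windows, and TTTGAA from 0 to 25, at 31.8, where other genes have 7.16 and 1.27.

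Counted over only the 150 bases before the start, TTTGAA was found in 34.1% of members and 10.5% of all genes, and CCAAT in 73.2% and 27.7%. The E2F-type motif GGCGGGAA was found in 0 of 41 members and 2.52% of all genes, and these letters are a strict form of it. The IRF-type motif, GAAA followed by any 2 bases and then GAAA, the core of interferon-stimulated response elements, was in 3 members, Bub1b, Cdca3 and Spc25 (7.32%, 2.52% to 19.4%), and in 3.99% of all genes.

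Among the members, the median folds with and without TTTGAA lay close together, those with and without CCAAT less so, and no test was made. The median log2 fold change was -1.20 in the 32 members with TTTGAA and -1.14 in the 9 without, and -1.18 in the 31 with CCAAT and -1.44 in the 10 without. The 3 with the IRF-type motif had a median of -1.31. These are descriptions of the letters in the windows, and neither binding of a factor nor its activity was measured here.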

How the data were processed

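RNA-seq of 8 libraries of primary murine cardiac fibroblasts was used. Per the study's methods, the authors trimmed reads with Trimmomatic, mapped them to GRCm38 with HISAT2, and deposited raw read counts per gene from HTSeq-count and FPKM from Cufflinks. The strand setting of the counting is not given in the sources used here, and the labels and the methods name different kits. The authors' own fold changes and p-values were not used. In the file the letters nc of 121 symbols read GFP, and these were restored by Ensembl identifier.

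Counts were tested with edgeR 4.0.16 (R 4.3.3) by glmQLFit and glmQLFTest without covariates, after filterByExpr and TMM scaling (factors 0.989 to 1.01), with Benjamini-Hochberg adjustment over 13533 genes. CPM are TMM-scaled. Exact permutation tests used log2 CPM with a prior count of 2. Replicate libraries were compared, and each pair exceeded sampling noise. Members given by library are, in each role, that with the highest FPKM and those with the lowest and highest fold change, and any not called or not tested. In other lists they are the 2 lowest and the 2 highest past the threshold, and all CDK inhibitors and G1 genes. Oip5, Incenp, Mybl2, the further DREAM genes and members given in passing were added after their values were seen. The members and lists were chosen with earlier results of these data known. Exon overlaps came from GENCODE on GRCm38. The fits were tested on simulated data. Alternatives were DESeq2 1.42.0, limma 3.58.1 on log2 FPKM, other scalings and filters, a replicate block and leaving out each library.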

Additional observations from a re-analysis of the deposited data

Results flagged for a closer look

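In 6 of 100 groups of 4 libraries, 1 group for each member and condition, a library stood apart from its group by Dixon's criterion, which chance alone does in about 1 of 20 groups. In OEIRF7, Pbk was at 0.827 CPM in replicate 2, against 1.09 to 1.10 CPM in the other libraries, and Dlgap5 at 0.628 CPM in replicate 3, against 1.10 to 1.18 CPM. Ska1 in OEIRF7 replicate 2 was at 0.103 CPM, against 0.0775 to 0.0811 CPM, a difference of 1 count. In GFP, Ndc80 was at 1.83 CPM in replicate 1, against 2.23 to 2.29 CPM, Bub1 at 6.94 CPM in replicate 4, against 4.65 to 5.02 CPM, and Racgap1 at 12.1 CPM in replicate 2, against 15.3 to 15.8 CPM. The flags fell on 5 of the 8 libraries, and of these groups only that of Racgap1 overlapped the other condition.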

How the results depend on the processing

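The number of members called lower was 47 or 48 under DESeq2, both limma fits, other scalings, other filters and the replicate block, and 45 to 46 with 1 library left out. Where it was tested, Ska1 is counted too. With 1 library left out, the number past a log2 fold change of -1 was 33 to 38 and the median -1.30 to -1.18, while 0 members were called higher throughout. In limma on log2(FPKM + 1), 7 members lay past -1 and the median was -0.643, because the pseudocount is large beside levels near 1 FPKM. With a pseudocount of 0.1 it was 32 members and -1.12. Of 783 member calls under these alternatives, 755 stayed on their side of the threshold, 1 was gained (Kif22) and 27 were lost, all among Cdca2, Cdca8, Ttk, Sgo1 and Racgap1.

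The labels number the replicates but do not say that numbers pair cultures. Correlations of same-numbered libraries' deviations from the group means were 0.079, 0.095, 0.138 and 0.104, each above those with other numbers, as a hint from the data and not the design. With the replicate block 47 members were lower, 36 past -1, the median was -1.18, and Cdca2 alone lost its call (adjusted p = 0.059). Members near or under 1 CPM rest on few counts.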

Other observations

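Within OEIRF7 the median log2 CPM of the members was 1.33, 1.03, 1.21 and 1.42 in replicates 1 to 4, and within GFP it was 2.41, 2.28, 2.35 and 2.46. The OEIRF7 libraries thus spread over a wider range than the GFP libraries, with replicate 2 the lowest in both groups and replicate 4 the highest in both, and no library came near the other group.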
